A study of Mus musculus with 2 samples.

Results

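The Wnt ligands, their Frizzled receptors and their extracellular regulators were examined as a family in dorsal skin of mice with mite-induced dermatitis. Members were matched by gene symbol, and they and the lists used below were chosen with earlier results of these data known. There were 47 member genes, read by 50 of the 33793 probes, out of 22180 genes measured. They comprised 19 Wnt ligands, 10 Frizzleds, the secreted Wnt-binding proteins Sfrp1, Sfrp2, Sfrp4, Sfrp5 and Wif1, the Dickkopf genes Dkk1 to Dkk4 and Dkkl1, the R-spondins Rspo1 to Rspo4 with the receptors Lgr4, Lgr5 and Lgr6, and Axin2. All the mice were female NC/Nga, an inbred strain prone to dermatitis, and all had received an ointment of Dermatophagoides farinae body extract for 6 weeks. The mice were 6 weeks old at entry and 13 weeks at sampling. The control group received the ointment only, as far as the labels state, and the other group also received recombinant ZAG on the skin for 6 weeks, at 1 µg/mL per the series design text. ZAG stands for zinc-alpha-2-glycoprotein, which is secreted and known for mobilising lipid. No array of skin without dermatitis was analysed here, so each difference below compares diseased skin with ZAG and diseased skin without it.

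Gene expression was read on 2 Affymetrix arrays, 1 per group, although the design text names 3 mice in each. What each array holds, be it 1 mouse, a pool or a mean, is not stated in the labels. No difference could therefore be tested against replicate error, and array number limits the precision of every value. The question the arrays address is how transcript levels in dermatitic skin differ with topical ZAG.

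Wnt proteins are secreted, lipid-modified signals. In the canonical branch a Wnt binds a Frizzled together with the co-receptor Lrp5 or Lrp6, the complex that destroys beta-catenin is held off, and beta-catenin enters the nucleus to act with Lef1 and the Tcf factors. Secreted frizzled-related proteins and Wif1 bind Wnts outside the cell, Dkk1, Dkk2 and Dkk4 act on the Lrp co-receptors, and R-spondins act through the Lgr receptors to keep Frizzleds at the cell surface. Axin2 is a part of the destruction complex and at the same time a direct target of beta-catenin, so its transcript is widely used as a reading of the pathway. In skin the pathway is known for hair follicle formation, for the start of hair growth and for the upkeep of epidermal stem cells. Wnt3, Wnt3a, Wnt5a, Wnt10a, Wnt10b and Wnt11 were set apart as follicle-type Wnts, from textbook knowledge of their expression in the follicle epithelium or its dermal papilla; some of them are also made elsewhere in skin.

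The start regions of a few members are shown because Lef1 and the Tcf factors recognise a short element, and several members are themselves held to be targets of the pathway. RefSeq windows of 300 bases (GRCm38.p6, 250 before and 50 after the gene start) were found for 32 of the 47 members and were searched for CTTTGAT and CTTTGAA on both strands; the letters do not overlap one another. A match was present in 3 of the 32 (9.38%), beside 9.88% of the 27025 genes in the table, so the members held the letters about as often as other genes. The matches were in Wnt11 (chr7:98834862-98835161, plus strand), in 1 of the 3 windows of Wnt5b (chr6:119449337-119449636, minus strand) and in Dkk1 (chr19:30549447-30549746, minus strand). The window of Axin2 (chr11:108920099-108920398, plus strand), the textbook target, and that of Sfrp2 (chr3:83766071-83766370, plus strand), whose brighter probe had the largest difference of any member's probe, held neither motif. Each sequence is written 5′ to 3′ on the gene's strand, with the motif letters in capitals; in Wnt11 they stand on the other strand and read ATCAAAG.
Wnt11 promoter: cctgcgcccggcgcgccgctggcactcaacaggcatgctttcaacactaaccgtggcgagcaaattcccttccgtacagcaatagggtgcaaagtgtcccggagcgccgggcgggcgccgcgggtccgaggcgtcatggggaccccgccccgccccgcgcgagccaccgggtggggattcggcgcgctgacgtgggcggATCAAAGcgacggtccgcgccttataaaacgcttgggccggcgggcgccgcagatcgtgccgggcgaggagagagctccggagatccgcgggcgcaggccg
Wnt5b promoter: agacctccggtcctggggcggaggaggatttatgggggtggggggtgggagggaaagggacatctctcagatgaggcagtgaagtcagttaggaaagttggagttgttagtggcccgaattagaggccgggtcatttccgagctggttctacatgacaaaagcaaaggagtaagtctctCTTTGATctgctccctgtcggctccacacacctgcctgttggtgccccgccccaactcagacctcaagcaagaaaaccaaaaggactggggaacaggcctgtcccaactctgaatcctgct
Dkk1 promoter: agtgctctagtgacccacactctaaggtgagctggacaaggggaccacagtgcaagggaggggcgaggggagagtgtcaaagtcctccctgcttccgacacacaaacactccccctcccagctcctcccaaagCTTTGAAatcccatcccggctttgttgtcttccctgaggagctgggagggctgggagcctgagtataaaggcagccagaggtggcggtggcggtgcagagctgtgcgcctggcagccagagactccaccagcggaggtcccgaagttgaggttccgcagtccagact
Axin2 promoter: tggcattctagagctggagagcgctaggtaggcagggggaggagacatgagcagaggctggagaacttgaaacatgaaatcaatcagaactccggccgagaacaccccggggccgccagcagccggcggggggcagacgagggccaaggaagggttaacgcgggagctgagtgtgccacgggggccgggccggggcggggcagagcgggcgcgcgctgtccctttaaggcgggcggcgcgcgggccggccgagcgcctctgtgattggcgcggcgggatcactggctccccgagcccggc
Sfrp2 promoter: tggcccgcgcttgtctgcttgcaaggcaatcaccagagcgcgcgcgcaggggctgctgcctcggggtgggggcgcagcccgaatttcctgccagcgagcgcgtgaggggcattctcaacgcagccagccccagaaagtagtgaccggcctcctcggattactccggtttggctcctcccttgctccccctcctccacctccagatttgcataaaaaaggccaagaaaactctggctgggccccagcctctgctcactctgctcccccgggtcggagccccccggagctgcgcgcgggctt

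The matched letters began 51 bases before the gene start in Wnt11, 71 in Wnt5b and 117 in Dkk1. These genes had log2 differences of -0.03, -0.03 and -0.12 between the arrays. A match is a description of letters only, and its absence says nothing of sites outside the window. Dkk3, Dkk4, Fzd2, Fzd3, Fzd6, Fzd8, Lgr5, Rspo2, Rspo3, Sfrp1, Sfrp4, Wnt10a, Wnt5a, Wnt7b and Wnt8a had no window in the table.

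Most of the family was above background in the dermatitic skin. Background was gauged by 1390 olfactory and vomeronasal receptor genes, which were assumed, without a check, to be mostly silent in skin. The 95th percentile of their mean levels was 3.16 on the log2 scale, and 4.17% of them were above it on both arrays. By this gauge 38 of the 47 members (80.9%) were above background on both arrays, beside 59.4% of all genes. The 26 members that also passed the 99th percentile of the same receptor genes (4.10) made up 55.3%, beside 45.1% of all genes. Both shares of all genes include the 1390 receptor genes that set the gauge, few of which could pass it, and are lowered by them. All 6 follicle-type Wnts, all 4 R-spondins, all 3 Lgr receptors and Axin2 passed the 95th percentile. Of the other members, 7 of 13 Wnts, 9 of 10 Frizzleds, 4 of 5 Wnt-binding antagonists and 4 of 5 Dickkopfs did so.

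The members below the gauge on both arrays were Wnt2b, Wnt7a, Wnt8a, Wnt8b, Wnt16, Fzd9, Sfrp5 and Dkk4, with values from 2.35 to 3.11, and no fold is given for them. Wnt9b lay at 3.08 in control and 3.19 with ZAG, on either side of the gauge, which makes it at least 1.02-fold higher and no more than a bound. A further 12 members passed the 95th percentile but not the 99th: Wnt1, Wnt2, Wnt3a, Wnt6, Wnt7b, Wnt9a, Fzd8, Fzd10, Sfrp4, Dkk1, Rspo2 and Rspo3. Their presence in skin rests on the choice of gauge.

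**Figure D1:**
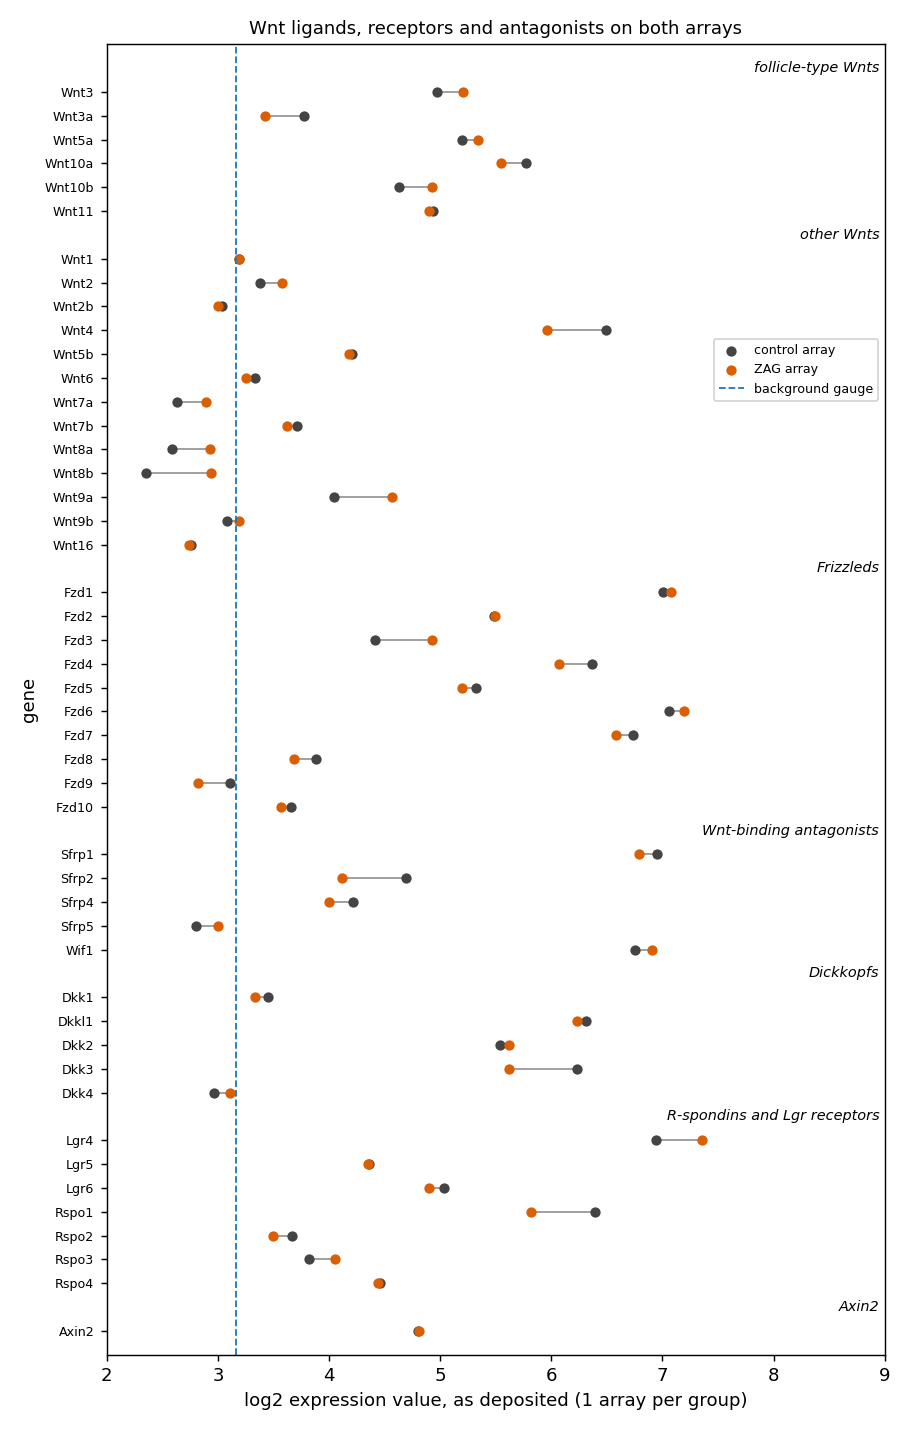
Log2 values, as deposited, of all 47 genes by role, with the control array in grey, the ZAG array in orange and the background gauge of 3.16 as a dashed line; each point is 1 array. Levels can be compared between the arrays for 1 gene but not between genes, whose probes differ; 8 genes lie left of the line on both arrays and most pairs of points lie close together.

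Between the arrays the family as a whole differed little. Over the 38 members above background the median log2 difference, ZAG minus control, was -0.05, beside 0.02 over all 13173 genes above background. Of the 38, 15 were higher and 23 lower with ZAG (60.5% lower, beside 47.5% of all genes above background). None was at least 1.5-fold higher, beside 2.33% of all genes, and 1, Dkk3, was at least 1.5-fold lower (2.63%, beside 4.47% of all genes). None reached 2-fold in either direction, beside 1.18% of all genes. As a scale for probe error, the SD of the log2 difference between probes of the same gene was 0.232 over 439 genes; it does not measure differences between mice. Differences of at least that size were seen in 12 of the 38 members, 6 higher and 6 lower (31.6%, beside 40.6% of all genes). With only 38 members, the counts past these sizes do not set the family apart from genes at large.

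**Figure D2:**
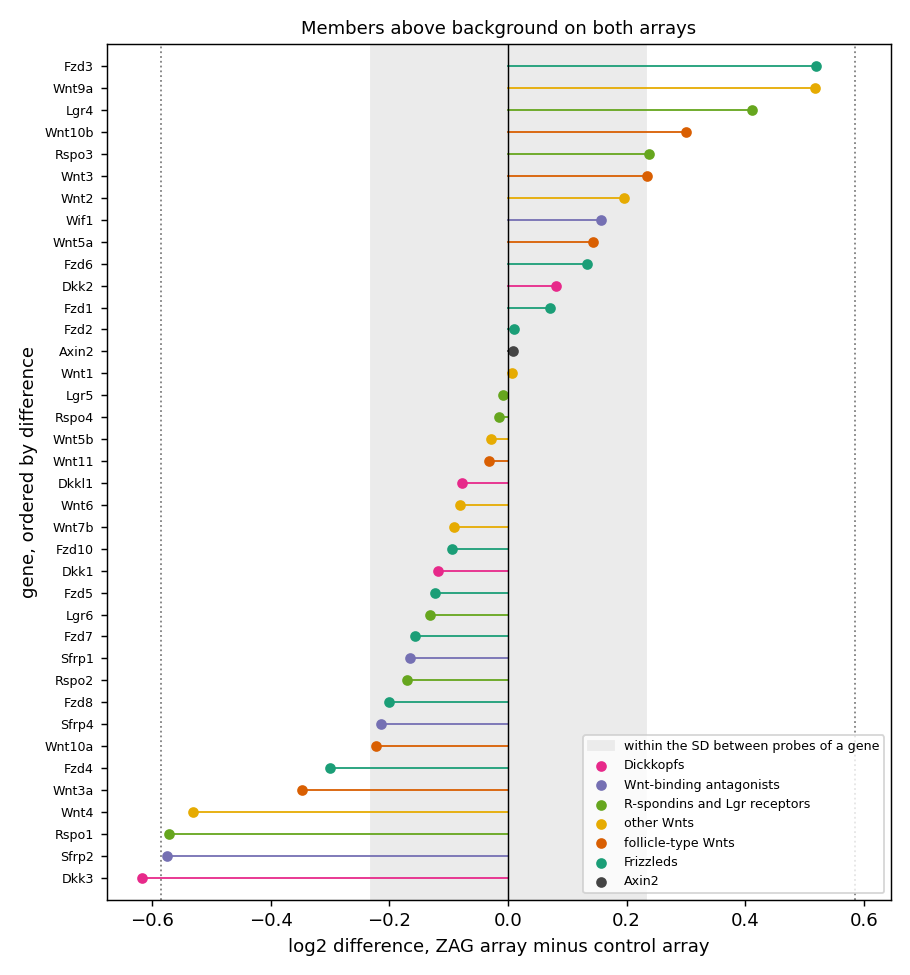
Log2 difference, ZAG array minus control array, of the 38 genes above background on both arrays, ordered by size and coloured by role; the grey band is the SD of 0.232 between probes of a gene and the dotted lines mark 1.5-fold. Only Dkk3 (-0.62) lies past a dotted line, and 26 genes lie inside the band.

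Follicle-type Wnts were split. Wnt10b, a Wnt of the hair placode and matrix that promotes hair growth, read 4.63 in control and 4.93 with ZAG (1.23-fold higher). Wnt3, made by cells that form the hair shaft, was at 4.97 and 5.21 (1.18-fold higher), and Wnt5a, which acts mostly without beta-catenin, was at 5.20 and 5.34 (1.10-fold higher). Those 3 were thus higher on the ZAG array, Wnt5a by less than the SD between probes and Wnt3 by hardly more than it.

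The other 3 follicle-type Wnts were lower. Wnt10a, made by placodes and by epidermal keratinocytes, read 5.77 in control and 5.55 with ZAG, a difference of -0.22, inside the SD between probes. Wnt11, of the branch that acts without beta-catenin, was at 4.94 and 4.90. Wnt3a, a canonical Wnt, was at 3.77 and 3.43 (1.27-fold lower), under the stricter gauge on both arrays. Over the 6 the median difference was 0.06, with a range of -0.35 to 0.30, and the median depended on which Wnts were counted: it was 0.23 over Wnt3, Wnt10a and Wnt10b alone, and -0.08 over a wider list that added Wnt4, Wnt6 and Wnt7b (and Wnt16, which was below the gauge). The paralogs Wnt10a and Wnt10b differed in opposite directions.

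Beside the follicle-type Wnts, the marker genes of the growing hair were higher. Of 14 measured hair matrix and shaft genes, 13 were above background and 12 of these were higher with ZAG (7.69% lower, beside 47.5% of all genes above background; median 0.51). The list's summed level on the linear scale was 5856 in control and 8369 with ZAG. Here and below, such sums weigh the genes with the highest readings most, and probes differ between genes, so a sum can go another way than the median. The shaft keratin genes Krt31, Krt33a and Krt34 differed by 0.81, 0.65 and 0.64, and Foxn1, a regulator of hair differentiation, by -0.02. Shh, a signal of the growing follicle, was below the gauge on both arrays. All 8 inner root sheath genes were higher (median 0.57, summed level 5846 and 8692), led by Krt26 at 1.13. Of 10 outer root sheath and bulge genes, 4 were higher and 6 lower (median -0.06, summed level 5423 and 5699), and of 12 dermal papilla genes above background 5 were higher and 7 lower (median -0.26, summed level over all 14 measured 601 and 543), with Sox2 and Prom1 below the gauge. Other tissue markers also differed between the same arrays. All 8 skeletal muscle genes were higher (median 0.78, summed level 1444 and 2247). So were 7 of 8 adipocyte genes, with a median under those of the hair shaft and inner root sheath (0.42, summed level 1907 and 2732). All 5 neutrophil genes above background were lower (median -1.40, summed level over all 6 measured 1358 and 500.4). Of the macrophage and monocyte genes, 5 of 6 were lower (median -0.66, summed level 805 and 478). In whole skin, more cells of a type and more RNA per cell cannot be told apart, and the part of any of these cells in the values of the Wnts was not tested.

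Among the other Wnts, Wnt4 and Wnt9a stood at opposite ends. Wnt4, made by epidermal keratinocytes, read 6.49 in control and 5.96 with ZAG, a difference of -0.53 (1.45-fold lower); 8.82% of all genes above background differed by at least as much in either direction. Wnt9a, known from joint development, was at 4.04 and 4.56, a difference of 0.52 (1.43-fold higher, a size reached by 9.24% of genes), with its control value under the stricter gauge. The remaining 5 above background were Wnt1, Wnt2, Wnt5b, Wnt6 and Wnt7b, whose differences lay from -0.09 to 0.20, all inside the SD between probes. Of the 4 epidermal genes measured in the skin identity list, the basal keratin gene Krt14 was at 11.35 and 10.62 and the suprabasal keratin gene Krt10 at 12.15 and 12.16; Krt1 and the loricrin gene Lor, named after their values were seen, differed by -0.13 and -0.21, so that 3 of the 4 were inside the SD between probes. The whole list of 6, which also holds the collagen genes Col1a1 (-0.70) and Col3a1 (-0.46), was above background with 5 lower (summed level 15506 and 12853). Their part in the Wnt4 value was not tested.

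Frizzled receptors showed no common direction. Fzd3, a receptor known from axon guidance and planar cell polarity, read 4.41 in control and 4.93 with ZAG, a difference of 0.52 (1.43-fold higher). Fzd6, the receptor that orients hair follicles, was at 7.06 and 7.19, a difference of 0.13. The family's lowest difference, -0.30, was in Fzd4, a receptor of vessels that also binds Norrin, at 6.37 and 6.07 (1.23-fold lower). Endothelial markers lay beside Fzd4: 5 of 6 were lower (83.3%, beside 47.5% of all genes; median -0.44, summed level 415 and 276), the vascular cadherin gene Cdh5 by -0.91, and Ndp, the Norrin gene, was at 3.29 and 3.40. The part of vessel cells in the Fzd4 value was not tested.

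The other Frizzleds above background were all inside the SD between probes. Fzd1 read 7.01 in control and 7.08 with ZAG, Fzd2 at 5.48 and 5.49, Fzd5 at 5.32 and 5.19, and Fzd7, a common receptor for canonical Wnts, at 6.74 and 6.58. Fzd8 (3.88 and 3.68) and Fzd10 (3.66 and 3.57) were little above the gauge. Over the 9 Frizzleds above background the median difference was -0.09, with 4 higher and 5 lower, and over the 7 that passed the 99th percentile it turned to 0.01.

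The Sfrp genes, Wif1 and the Dickkopf genes were grouped by family name as secreted antagonists, whether or not each blocks Wnt signals. Of these, 2 genes, Dkk3 and Sfrp2, were lower by more than the SD between probes. The other 6 above background lay inside it. By sign alone, 6 of the 8 were lower (75%, beside 47.5% of all genes above background; median -0.14, with -0.19 for the Wnt-binding antagonists and -0.10 for the Dickkopfs), and the direction of both medians held under median centring, quantile normalization and loess. Dkk3, a divergent Dickkopf of the bulge and of fibroblasts that is not a classical blocker of Lrp co-receptors, read 6.23 in control and 5.62 with ZAG. Its difference of -0.62 (1.53-fold lower) was the only one of the members past 1.5-fold, and 5.93% of all genes above background differed by at least as much in either direction. Just outside that limit lay Sfrp2, at -0.57 as the average of its 2 probes.

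Sfrp2 encodes a secreted frizzled-related protein of dermal fibroblasts and the dermal papilla. The brighter of its probes read 6.19 in control and 5.24 with ZAG, a difference of -0.95 (1.93-fold lower), while the dim one read 3.19 and 2.99, with its ZAG value below the gauge. Averaging them gave 4.69 and 4.11 (1.49-fold lower), so the brighter probe alone would put Sfrp2 past 1.5-fold and make it the lowest of the members. Sfrp1, of the same family, was at 6.95 and 6.79, and Sfrp4 differed by -0.21 (4.21 in control), both inside the SD between probes.

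Wif1, which is made by the dermal papilla and binds Wnts directly, went the other way, at 6.75 in control and 6.91 with ZAG, a difference of 0.16. Dkk1, the classical inhibitor of the Lrp co-receptors, was at 3.45 and 3.34, Dkk2 at 5.53 and 5.61, and Dkkl1, a Dickkopf-like gene best known from testis, at 6.31 and 6.24. None of these 4 left the SD between probes. Dermal fibroblast markers lay beside Dkk3 and Sfrp2: 8 of 10 were lower (80.0%, beside 47.5% of all genes; median -0.41, summed level 10569 and 8721), among them the collagen gene Col1a1 (-0.70) and the receptor gene Pdgfra (-0.79), while the matrix gene Dcn differed by 0.04 and the fibroblast protease gene Fap by 0.40. The part of fibroblasts in the values of the antagonists was not tested.

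R-spondins and their receptors held both directions. Rspo1, a ligand that strengthens Wnt signals and is made by stromal cells, read 6.39 in control and 5.82 with ZAG, a difference of -0.57 (1.49-fold lower), just under the 1.5-fold limit. Rspo3, an R-spondin of endothelium, was at 3.82 and 4.05, a difference of 0.24, with both values under the stricter gauge. Endothelial markers went the other way, with 5 of 6 lower (83.3%, beside 47.5% of all genes, median -0.44). The part of vessel cells in the Rspo3 value was not tested. Rspo2, known for its link to coat type in dogs, was at 3.66 and 3.49, and Rspo4, known for nail formation, was at 4.45 and 4.44.

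Lgr4, the broadly expressed R-spondin receptor, read 6.95 in control and 7.36 with ZAG, a difference of 0.41 (1.33-fold higher), a size reached by 16.4% of genes above background. Lgr5, the stem cell marker of the lower bulge and hair germ, had 2 probes that disagreed: the brighter was at 5.61 and 5.89, a difference of 0.28, and the other, below the gauge on both arrays, at 3.10 and 2.80. Their average, 4.36 and 4.35, carries no direction for Lgr5. Lgr6, a marker of stem cells above the bulge, was at 5.03 and 4.90.

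Axin2 was level between the arrays. Its average read 4.80 in control and 4.81 with ZAG, a difference of 0.01, and 97.7% of all genes above background differed by at least as much. Its probes read 5.27 and 5.25, and 4.33 and 4.37, and neither left the SD between probes.

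The rest of the pathway was read from lists that leave out the members. Of 79 measured pathway and target genes, 73 were above background, 28 of them higher and 45 lower (61.6% lower, beside 47.5% of all genes above background; median -0.09). Of the 73, 5 were at least 1.5-fold lower (6.85%, beside 4.47% of all genes) and 1 passed that size in the other direction (1.37%, beside 2.33%). The 20 measured beta-catenin target genes, which belong to the same question as Axin2, included 17 above background, 9 higher and 8 lower, with a median of 0.03 that turned to -0.009 after loess. Bambi, a decoy receptor of TGF-beta signals, differed by 0.63 and the feedback inhibitor gene Nkd1 by 0.55. The matrix regulator Msx2, which is also in the hair matrix and shaft list, differed by 0.38. In the other direction, the matricellular gene Ccn1 differed by -1.37, the adhesion receptor gene Cd44 by -0.66 and the transcription factor gene Sp5 by -0.41. Sp5 read 3.58 in control and 3.17 with ZAG, hardly above the gauge there and under the stricter gauge on both arrays.

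Nuclear and membrane partners showed no common direction, and each differed by less than 1.5-fold. Lef1, the follicle's main partner of beta-catenin, read 6.30 in control and 6.62 with ZAG (0.32), while Tcf7l1 and Tcf7l2, which also bind beta-catenin, differed by -0.44 and -0.54 and the cofactor gene Bcl9l by -0.51. Of these 14 genes above background, 6 were higher and 8 lower (median -0.08). Among 8 co-receptors and alternative receptors, 4 were higher and 4 lower, from -0.46 in Lrp5 and -0.37 in Ptk7 to 0.19 in Kremen2, which helps Dickkopfs clear Lrp6.

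Genes for making and handling Wnts were split as well. Wls, which carries Wnts to the cell surface, read 7.37 in control and 7.64 with ZAG (0.28), and Porcn, which attaches their lipid, was at 6.36 and 6.07 (-0.29). Sostdc1, an antagonist of Wnt and BMP signals in the follicle, differed by 0.39, and Cthrc1, a secreted collagen-repeat protein that favours the polarity branch, by -1.07. The 10 above background had 5 higher and 5 lower, with a median of -0.04 that turned to 0.0064 under quantile normalization; Sost and Frzb, the gene of another frizzled-related protein, were below the gauge on both arrays. The ubiquitin ligase genes that remove Frizzleds differed by 0.04 (Rnf43) and -0.27 (Znrf3).

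Inside the cell, 9 of 12 destruction complex and Dishevelled genes were lower by sign alone (75%, beside 47.5% of all genes, median -0.06). Of all 12, 9 lay inside the SD between probes and only 3, all lower, lay outside it. Dvl3 at -0.66 and Gsk3b at -0.46 were the lowest and Csnk1e at 0.19 was the highest. Of the genes of planar polarity and of signalling without beta-catenin, 11 of 14 were lower (78.6%, beside the same 47.5%) and 3 higher, with a median of -0.24 that lay between -0.25 and -0.21 under the alternatives run. Celsr2, a polarity cadherin, differed by -0.72 and was the only one at least 1.5-fold lower; Nfatc1, a calcium-regulated factor also known from bulge stem cells, differed by -0.46, and Mapk8, the JNK1 gene, by 0.20.

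**Figure D3:**
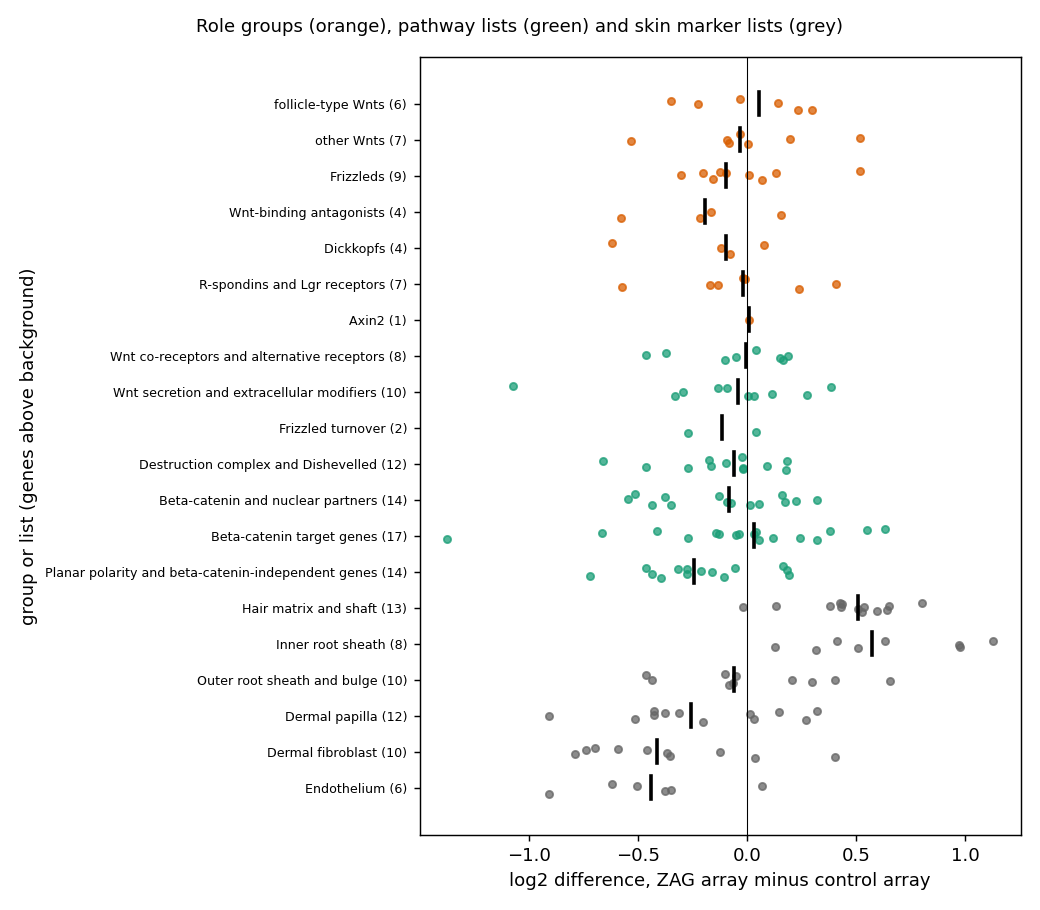
Log2 difference, ZAG array minus control array, of each gene above background (points, shifted at random up or down for visibility), for the role groups (orange), the other pathway lists (green) and 6 skin marker lists (grey); black bars are medians and the number of genes stands in brackets. The hair shaft and inner root sheath medians (0.51 and 0.57) lie to the right of those of all role groups, which range from -0.19 to 0.06. Of the marker lists not drawn, skeletal muscle (0.78), adipocyte (0.42) and melanocyte (0.30) also had positive medians. Those of neutrophil (-1.40), macrophage and monocyte (-0.66), skin identity (-0.33) and T cell (-0.10) genes were negative.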

How the data were processed

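RNA from dorsal skin was prepared with a column kit and biotin-labelled sense cDNA was hybridised, per the labels' protocols. The deposited log2 values of the 2 arrays, 1 per group, were used unchanged; the scale was inferred from their range (0.889 to 12.75 in control, 0.866 to 13.19 with ZAG), and what the authors did before (background correction, summarisation, normalization) is not given in the sources that were used. Column medians were 3.33 and 3.36. By the platform annotation 23521 probes have 1 symbol; the 1814 with several, of which none held a member, and the 8458 without any were left out. Gene identifiers of all 47 members matched a RefSeq table. Probes were averaged per gene (3 members had 2), and ZAG minus control was taken. Where only 1 array was above the gauge, the fold is a lower bound against it.

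With 1 array per group no test was made, and the share of all genes above background that passed the same limit is given beside the members' counts and the main list counts. Every member is accounted for; from each other list up to 3 genes each way with the largest difference above background were eligible to be named, besides listed genes below the gauge. The members and lists were chosen with earlier results of these data known. The code that counts genes past a fold was checked on simulated data with known shifts, which says nothing about the arrays' own error. The tools were Python 3.11.15 with matplotlib 3.10.9, numpy 2.4.6, statsmodels 0.14.6 and pandas 2.3.3. Alternatives were other gauges, the brightest probe, median centring, quantile normalization, loess (span 0.3), 2-fold and other follicle lists.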

Additional observations from a re-analysis of the deposited data

How the results depend on the processing

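The count of members above background ran from 26 to 44 over 7 alternatives, and the median difference of the members stayed below 0 in all those run (-0.07 to -0.02). No member was at least 1.5-fold higher under any alternative run. The count at least 1.5-fold lower was 2 with the brightest probe and under median centring, where Sfrp2 joined Dkk3, and 0 at 2-fold. Several medians moved or changed sign. That of the other Wnts was -0.28 at the 99th percentile gauge, where 2 genes were left, and that of the Frizzleds was 0.0105 there, with 7 genes. The follicle-type median was 0.23 over the narrow list and -0.0813 over the wide list. The list for Wnt secretion turned to 0.0046 with the brightest probe and 0.0064 under quantile normalization, and the beta-catenin target list to -0.009 after loess. The members that changed sign under an alternative (Axin2, Fzd2, Lgr5 and Wnt1) had differences of at most 0.0105 in size as reported; Lgr5 moved to 0.28 with the brightest probe. No paired analysis was possible because each group has 1 array and the labels give no replicate numbers. Without replicates, the spread between mice limits every value here and remains unknown.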
